A study of Homo sapiens with 40 samples.

Results

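OCI-Ly10 cells were exposed to IL-6 at 50 ng/ml, and their RNA was compared with that of untreated OCI-Ly10 cells on spotted 2-colour arrays. The 5 arrays described here, of 40 in the series, are those titled 3 h (2 arrays), 6 h (2 arrays) and 24 h (1 array), chosen by their titles and not by any measured value. OCI-Ly10 is an established human lymphoma line (diffuse large B cell lymphoma of the activated B cell-like type). Such lines often have active NF-kB and STAT3 without any added cytokine, so the untreated cells are not a resting baseline. The labels put the treated RNA in the Cy5 channel and the untreated RNA in the Cy3 channel of every array. The comparison groups were the IL-6 arrays at 30 min (1 array) and 1 h (2 arrays) and arrays of other treatments. These were OCI-Ly10 cells given JAK inhibitor I at 5 uM for 3 and 6 h (4 arrays). They were also OCI-Ly3 cells given IL-10 at 50 ng/ml for 3, 6 and 24 h (6 arrays). OCI-Ly10 cells electroporated with a pool of siRNAs against STAT3 at 4 uM, with cells given no siRNA as the control, were measured at 8 h (1 array), 24 h (2 arrays) and 48 h (2 arrays) and are set beside the IL-6 values without a test. OCI-Ly3 is a second line of the same lymphoma type. The remaining arrays are of an IkB super-repressor in OCI-Ly3 and OCI-Ly10 (dose given as 20 ng/ml) and of IL-10 at other times. They enter the shared fit and the mean of the other experiments, with no comparison of their own.

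IL-6 binds its receptor IL6R, which pairs with the shared chain gp130 (IL6ST) and activates JAK kinases that phosphorylate STAT3. STAT3 enters the nucleus and switches on its own brakes, above all SOCS3, within minutes, so the first wave of target genes is usually short. Changes that last for hours include targets that stay induced and a second wave that needs newly made proteins. In B cells this pathway is known for supporting survival and plasma cell development.

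Each value is the log ratio of treated over untreated RNA, taken to be log2, since no source names the base, after each array was centred on its median, so 1 is read as a 2-fold difference and 0 as none. Ratios hold no level, and the B cell identity of the cells could therefore not be checked from their markers. The labels do not say whether replicates were separate cultures or whether arrays shared 1 batch of untreated RNA. The p-values therefore measure a spread between arrays, which may not be a spread between cultures. That spread, also used for the standard errors, was shared per gene over all 40 arrays of the series, most of them from other experiments. No array had its dyes swapped, and a dye bias of a probe cannot be told apart from a response. On the 5 arrays 8862 to 12731 of 15246 probes had a value, and 2901 of 4604 named genes had one on all 5. The array of 3 h replicate 1 stood apart: across probes it correlated at 0.00164 to 0.274 with the other 7 IL-6 arrays, which correlated with each other at 0.247 to 0.595. Results are therefore also given without it where that changes a call. Judged by the array identifiers in the titles, the replicate 1 arrays and the single 24 h array lie in 1 run and the replicate 2 arrays in another, so values given per replicate are also values within a run. With arrays of other experiments, 3 pairs of these arrays correlated below -0.3 (lowest -0.34). The dyes are stated in the labels, and the direction was kept.

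Over 3 to 24 h, 104 of 3496 genes tested were higher and 26 were lower with IL-6 (3.72% called in either direction, 2.97% higher and 0.744% lower; limma, Benjamini-Hochberg adjusted p under 0.05). The test was of the mean over the 3 time points against 0. Of the called genes, 46 differed by 0.5 or more on the log2 scale. The median of all genes was 0.00, which the centring of each array largely sets in advance. SPP1, GZMB, KLRC2 and IL2RB headed the higher genes, while IFI44L, CCL4 and CCL3 were the lowest of those below 0 on every measured array. PKD1 had a mean of -0.71 that rests on the 24 h array, with time means of -0.30 at 3 h, 0.08 at 6 h and -1.90 at 24 h. The count ranged from 59 without 3 h replicate 2 to 109 without 3 h replicate 1, and was 65 without the 24 h array. With the replicate number as a block, 170 genes were higher and 48 lower, 125 of them shared with the 130. With the run of array identifiers as a random block, the calls were 39 higher and 7 lower, and all 46 were among the 130.

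The called higher genes had higher medians at 6 and 24 h than before. Their median log2 ratio went from 0.20 (30 min) through 0.27 (1 h), 0.28 (3 h) and 0.47 (6 h) to 0.53 (24 h). At 30 min only 61 of the 104 had a value, and the 24 h median rests on 1 array. Of the 99 measured at 1 h, 90 were already above 0 there, against 1721 of 3477 of all genes tested. The 1 h arrays lie in the same runs of identifiers as the later ones and would share a dye bias of a probe. Their largest mean was at 6 h for 46 genes, at 24 h for 44, at 3 h for 8 and at 1 h for 6. The 26 called lower genes went from -0.17 (30 min) and -0.09 (1 h) to medians of -0.28 (3 h), -0.29 (6 h) and -0.56 (24 h), and 19 of them were furthest from 0 at 24 h. The values from 3 h on chose these genes and are a description. In the counts of largest and furthest means, the 24 h value is that of 1 array, set against means of replicate arrays where both had a value. A single array varies more than such a mean, and no share of all genes is set beside these counts. They therefore do not rank the times. A blank on at least 1 of the 5 arrays was found for 33 of the 104 higher genes (31.7%), for 3 of the 26 lower genes (11.5%) and for 17% of all genes tested. The part of spots left blank in the higher calls was not tested.

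Of 13 JAK-STAT feedback genes tested, 2 were higher over 3 to 24 h and none was lower, against 2.97% and 0.744% of all genes. SOCS3, the inhibitor that binds gp130 and JAK kinases, stood at 2.62 at 30 min and at 1.60 and 1.31 at 1 h. From then on it was flat, at 0.59 and 0.45 at 3 h, 0.45 and 0.56 at 6 h and 0.60 at 24 h. Every later array was thus well below the early ones and still above 0. The mean of SOCS3 over 3 to 24 h was 0.54 ± 0.12 (SE, 5 arrays; adjusted p = 0.0165), and the call was lost without 3 h replicate 1 (adjusted p = 0.051) and with the run as a random block (adjusted p = 0.0812).

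PTPN1, which encodes a tyrosine phosphatase that acts on JAK kinases, took another course. It was at 0.04 at 30 min, 0.22 and 0.38 at 1 h, 1.06 and 0.62 at 3 h, 0.44 and 0.38 at 6 h and 0.52 at 24 h. It was highest on the 3 h arrays, and every array from 3 h on was at or above the 1 h arrays. Its mean was 0.59 ± 0.10 (adjusted p = 0.00236). With the mean of the other 5 experiments of the series subtracted from each gene, it was 0.25 and did not pass (adjusted p = 0.166). Those experiments are IL-10, JAK inhibitor I, STAT3 siRNA, and the IkB super-repressor in OCI-Ly3 and in OCI-Ly10. Responses to these agents are part of what is subtracted. A call lost this way therefore does not tell a shared response from a bias of the probe. The other 11 feedback genes did not pass the test, among them CISH at 0.27, SOCS2 at 0.27 and SOCS1 at -0.04.

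None of the 14 IL-6 receptor, JAK and STAT genes tested passed over 3 to 24 h, where 3.72% of all genes did. Their median was 0.06, against 0.00 for all genes. IL6ST was at 0.02 ± 0.08, IL6R at -0.01 ± 0.06 and IL6 itself at 0.07 ± 0.14. STAT3, which can raise its own gene, was at 0.41 and 0.42 on the 3 h arrays, 0.13 and 0.19 at 6 h and -0.02 at 24 h, after -0.34 at 30 min and -0.39 and -0.12 at 1 h. Its mean of 0.19 ± 0.16 did not pass (adjusted p = 0.576). JAK2 was not tested, since too few of its values were present.

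Of 33 known STAT3 target genes tested, 1 was higher and none was lower (median 0.01), against 2.97% and 0.744% of all genes, so the list lay near the background. The gene was BCL3, an IkB family member that works with NF-kB p50 and p52 in the nucleus. BCL3 stood at 0.67 at 30 min, 1.45 and 0.93 at 1 h, 0.75 and 0.75 at 3 h, 0.82 and 0.61 at 6 h and 0.51 at 24 h. It was highest on the 1 h arrays and above 0.5 on all 8 arrays, with a mean of 0.66 ± 0.09 over 3 to 24 h (adjusted p = 0.000394). The survival kinase PIM1 (-0.30 ± 0.14, adjusted p = 0.266), MYC (-0.13 ± 0.15), BCL6 (0.15 ± 0.07), the plasma cell regulator PRDM1 (0.13 ± 0.12) and JUNB (0.13 ± 0.06) did not pass.

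The gene with the highest mean was SPP1, which encodes osteopontin, a secreted matrix protein that also acts as a cytokine. SPP1 was at 1.40 and 0.85 at 3 h, 2.17 and 1.52 at 6 h and 2.58 at 24 h, while at 1 h only replicate 2 had a value, 0.60. The 24 h array was the highest and both 6 h arrays were above both 3 h arrays. Its mean was 1.85 ± 0.16 (adjusted p = 1.2e-05).

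GZMB, the serine protease of cytotoxic granules, followed a like course. It was at 0.51 at 30 min, 0.41 and 0.58 at 1 h, 0.57 and 0.74 at 3 h, 1.08 on the single 6 h array with a value (replicate 2) and 1.98 at 24 h. All measured arrays were above 0, and the 24 h array was well above the rest. Its mean was 1.24 ± 0.17 (adjusted p = 0.000402). Of the 6 cytotoxic effector and matrix genes tested, SPP1 and GZMB passed, where 3.72% of all genes did. GZMH was at 0.44, NKG7 at 0.33, and GNLY and GZMM were both at -0.02.

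IL2RB, the beta chain shared by the IL-2 and IL-15 receptors, was at 0.41 at 30 min, 0.94 and 0.15 at 1 h, 0.68 and 0.90 at 3 h, 1.08 and 0.54 at 6 h and 0.84 at 24 h. It showed no order in time, and the 2 replicates differed most at 1 h. Its mean was 0.81 ± 0.11 (adjusted p = 0.000394), although its 5 probes differed, with means over the 5 arrays from -0.05 to 1.03. It was the one of 17 interleukin receptor genes tested that passed (list median 0.09), where 3.72% of all genes did. KLRC2, an NK cell receptor chain, was at 0.15 and 0.83 at 3 h, 1.64 at 6 h (replicate 2) and 0.62 at 24 h, with no value before 3 h and a mean of 0.92 ± 0.14 (adjusted p = 0.00252). In a fit on the IL-6 arrays alone neither IL2RB (adjusted p = 0.0673) nor KLRC2 (adjusted p = 0.0834) passed.

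GZMB, IL2RB and KLRC2 are best known from T and NK cells. Of 17 T and NK cell markers tested, 5 were higher and none was lower, against 2.97% and 0.744% of all genes. The list median was 0.24, and 15 members were above 0, against 49.1% of all genes. The 5 were GZMB and IL2RB, which had raised the question, and CD28 (0.59 ± 0.16), CD6 (0.50 ± 0.11) and LCK (0.31 ± 0.09). LCK was named after its values were seen. With the run as a random block 2 of the 5 kept the call, GZMB and IL2RB, while CD28 (adjusted p = 0.0947), CD6 (adjusted p = 0.0749) and LCK (adjusted p = 0.172) did not. CD28 (adjusted p = 0.0632) and LCK (adjusted p = 0.158) lost it without 3 h replicate 1. CD28 (adjusted p = 0.134) and CD6 (adjusted p = 0.0755) lost it without 3 h replicate 2, both lost it without 6 h replicate 2 (adjusted p = 0.0507 and 0.0677), and CD28 lost it without the 24 h array (adjusted p = 0.12). The genes of the CD3 complex, which define T cells, were at 0.16 (CD3D), 0.07 (CD3E) and 0.24 (CD3G), and none passed. The list's median per array ran from 0.13 to 0.23 over the 5 arrays and from 0.00 to 0.27 at 30 min and 1 h. Since ratios hold no level, it cannot be said which of these markers were near 0 in the cells, and the part of other cells in the result was not tested. Of 11 myeloid markers none passed (median 0.08), and of 11 erythroid and stromal markers PECAM1 passed at 0.57 ± 0.12, a call lost without the 24 h array (adjusted p = 0.137) and with the run as a random block (adjusted p = 0.0952).

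**Figure D1:**
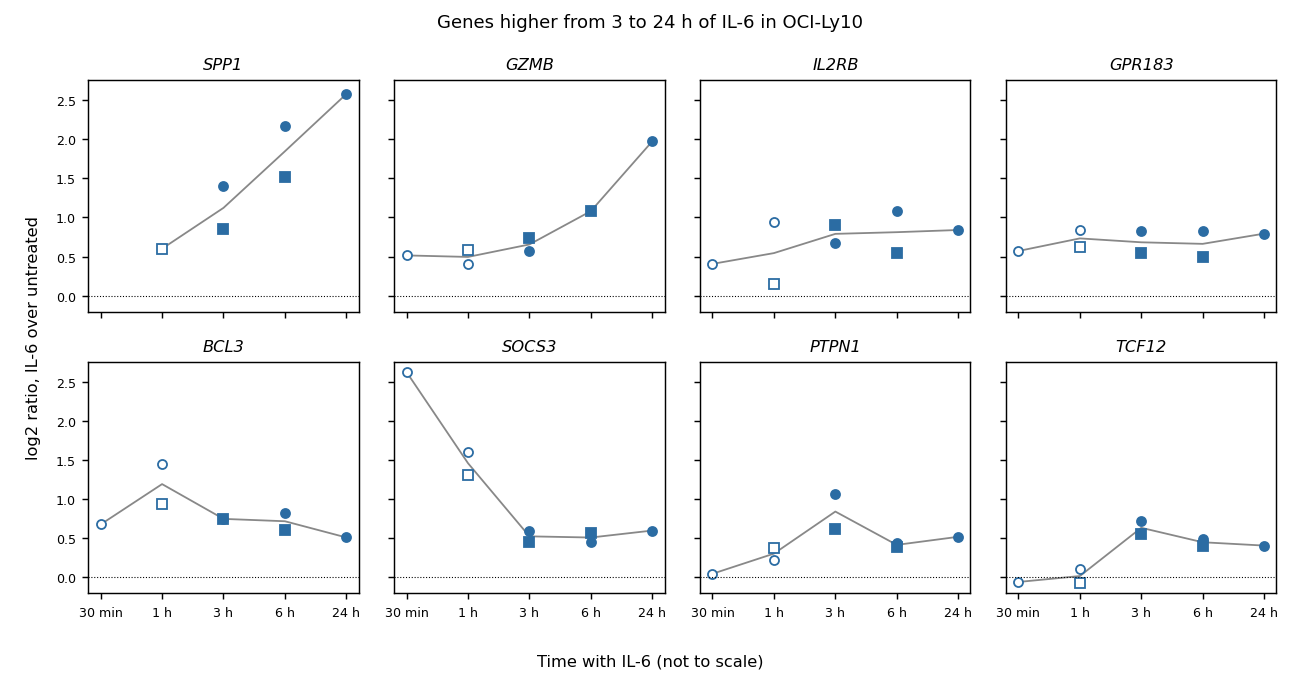
Log2 ratio of IL-6 over untreated RNA (y axis) by time with IL-6 (x axis, 30 min to 24 h, not to scale) for 8 genes higher over 3 to 24 h. Each point is 1 array, circles being replicate 1 or a single array and squares replicate 2, with filled points from 3 h on, and lines join the means. SPP1 and GZMB reach 2.58 and 1.98 at 24 h, BCL3 and SOCS3 are highest at 1 h or before, and TCF12 is near 0 before 3 h.

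TCF12, an E protein transcription factor of lymphocytes, was named after its values were seen, because it was 1 of 3 genes called at 3 h alone. It was at -0.06 at 30 min, 0.10 and -0.07 at 1 h, 0.72 and 0.55 at 3 h, 0.49 and 0.40 at 6 h and 0.40 at 24 h. All 5 arrays from 3 h on were above all 3 earlier arrays. Its mean was 0.49 ± 0.07 (adjusted p = 0.000394), while the difference between 3 and 6 h and 1 h, 0.53 ± 0.12, did not pass over all genes (adjusted p = 0.125).

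GPR183 encodes EBI2, the oxysterol receptor that guides B cells in lymphoid tissue. It was at 0.57 at 30 min, 0.84 and 0.62 at 1 h, 0.82 and 0.54 at 3 h, 0.83 and 0.50 at 6 h and 0.79 at 24 h, with replicate 1 above replicate 2 at every time with both. GPR183 was thus already higher at 30 min than on the lower 6 h array, and its mean was 0.71 ± 0.12 (adjusted p = 0.00321). With the mean of the other experiments subtracted it was 0.41 and did not pass (adjusted p = 0.0684). It was the one gene of 14 B cell migration receptors and regulators that passed, where 3.72% of all genes did. The adhesion and matrix genes ITGA9 (0.72 ± 0.14), MMP7 (0.65 ± 0.14) and CD36 (0.61 ± 0.11, a fatty acid and thrombospondin receptor) were also higher. MMP7 lost its call with the run as a random block (adjusted p = 0.0684) and without 6 h replicate 1 (adjusted p = 0.0695), and both MMP7 (adjusted p = 0.0755) and ITGA9 (adjusted p = 0.0578) lost theirs without 3 h replicate 2.

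Among other genes with high means were NOTCH3, a Notch receptor (0.65 ± 0.11), GSTM3, a glutathione transferase (0.71 ± 0.12), and ENPP1, an ectonucleotidase (0.70 ± 0.16, a call lost without 3 h replicate 2, adjusted p = 0.104). Of 26 glycolysis and hypoxia genes, PFKFB3, which makes an activator of glycolysis (0.31 ± 0.06, adjusted p = 0.00767), and NDRG1 (0.35 ± 0.09, adjusted p = 0.0333) were higher and none was lower (median -0.03). Over all genes 2.97% were higher and 0.744% lower. With the run as a random block PFKFB3 kept its call and NDRG1 did not (adjusted p = 0.0749), and with the mean of the other experiments subtracted neither passed (PFKFB3 at 0.13, adjusted p = 0.24; NDRG1 at 0.22, adjusted p = 0.18). NDRG1 lost its call without any 1 of 4 arrays, all but 6 h replicate 1 (adjusted p from 0.073 to 0.122). NLRC5, the transactivator of MHC class I genes, was the single call among 15 MHC class I presentation genes, at 0.26 ± 0.06 (adjusted p = 0.0294). The share called over all genes was 3.72%. It did not pass with the run as a random block (adjusted p = 0.0812), nor, at 0.11, with the mean of the other experiments subtracted (adjusted p = 0.373). Its call was lost without 3 h replicate 2 (adjusted p = 0.126), 6 h replicate 2 (0.123) or the 24 h array (0.0943).

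On the lower side, 5 of 33 interferon-stimulated genes tested had fallen and none had risen, against 0.744% and 2.97% of all genes, with a list median of -0.01. IFI44L, an interferon-induced protein, was at 0.27 at 30 min, 0.27 and -0.04 at 1 h, -0.34 and -0.29 at 3 h, -1.16 and -0.78 at 6 h and -1.68 at 24 h. Its values stepped down from 3 h to 24 h without overlap between the times. The mean was -0.99 ± 0.12 (adjusted p = 0.000132), and the 24 h array fell below those at 3 and 6 h by 1.03 on the log2 scale, a difference that did not pass over all genes (adjusted p = 0.322). Without the 24 h array its mean was -0.65 and still passed.

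MX1, an antiviral GTPase, was at 0.06 at 30 min, 0.07 and -0.03 at 1 h, -0.32 and -0.14 at 3 h, -0.73 and -0.35 at 6 h and -0.86 at 24 h, with a mean of -0.55 ± 0.08 (adjusted p = 0.000618). Its arrays before 3 h lay near 0 and every later array was below them. OAS2 (-0.40 ± 0.10) and OAS3 (-0.34 ± 0.08), which make the second messenger of RNase L, and the ubiquitin-like modifier ISG15 (-0.31 ± 0.07) passed with smaller differences. ISG15 was named after its values were seen. With the run as a random block IFI44L and MX1 kept the call, and OAS2 (adjusted p = 0.109), OAS3 (adjusted p = 0.0527) and ISG15 (adjusted p = 0.113) did not. The list did not move as a whole, since 14 of its members had means above 0, among them CXCL9 at 0.50 ± 0.16 (adjusted p = 0.0926) and XAF1 at 1.05 ± 0.39 (adjusted p = 0.162), the latter with 1 array at 3.94. OAS2 lost its call with the mean of the other experiments subtracted (adjusted p = 0.125). OAS2 and OAS3 also lost theirs without 3 h replicate 2 (adjusted p = 0.124 and 0.0752), 6 h replicate 1 (0.109 and 0.0558) or the 24 h array (0.0641 and 0.0653), and ISG15 without 3 h replicate 1 (adjusted p = 0.105).

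The promoters of the fallen interferon-stimulated genes are shown because these genes moved together and interferon-responsive promoters commonly hold a repeated GAAA element. The 250 bases before the start were searched on both strands for GAAA, any 2 bases and GAAA again, and matches are in capitals (RefSeq, GRCh38.p14). A match can share bases with the other motif searched, TTCNNNGAA. IFI44L (chr1:78620198-78620447, plus strand) held 2 matches in a repeated stretch, OAS3 (chr12:112938224-112938473, plus strand) held 2, and ISG15 (chr1:1013247-1013496, plus strand) held 2 that overlap.
IFI44L: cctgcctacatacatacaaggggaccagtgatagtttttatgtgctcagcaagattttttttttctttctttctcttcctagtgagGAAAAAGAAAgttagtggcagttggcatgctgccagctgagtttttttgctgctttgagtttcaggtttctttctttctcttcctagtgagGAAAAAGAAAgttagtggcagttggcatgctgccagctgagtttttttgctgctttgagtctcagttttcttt
OAS3: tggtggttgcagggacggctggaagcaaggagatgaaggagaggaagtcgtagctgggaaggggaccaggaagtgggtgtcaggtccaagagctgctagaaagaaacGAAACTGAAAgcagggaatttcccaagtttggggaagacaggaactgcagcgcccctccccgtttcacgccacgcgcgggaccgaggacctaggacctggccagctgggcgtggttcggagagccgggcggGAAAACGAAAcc
ISG15: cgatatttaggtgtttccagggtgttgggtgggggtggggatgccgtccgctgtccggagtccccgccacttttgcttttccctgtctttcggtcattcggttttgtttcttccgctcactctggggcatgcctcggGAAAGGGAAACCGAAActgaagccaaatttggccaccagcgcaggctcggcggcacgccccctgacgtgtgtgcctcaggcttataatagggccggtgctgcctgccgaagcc
The window of MX1 held none, and OAS2 had no entry in the promoter table. The motif was in 15 of 27 interferon-stimulated genes tested that had a promoter entry (55.6%), in 99 of 2870 of all genes tested (3.45%) and in 3.07% of the 27305 promoters in the table. Members of the list that did not fall thus also held it. TTCNNNGAA, the core that STAT dimers bind (its own reverse complement), was in 3 of 78 higher genes with a promoter (3.85%), 1 of 23 lower genes, 5.78% of all genes tested and 6.78% of all promoters in the table. These matches describe letters in the window only.

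The chemokines CCL3 and CCL4 and the cytokine TNF, all known NF-kB targets, were also lower. CCL4 was at 0.45 at 30 min, 0.23 and 0.28 at 1 h, -0.22 and -0.23 at 3 h, -0.67 and -0.93 at 6 h and -0.99 at 24 h, with a mean of -0.67 ± 0.10 (adjusted p = 0.00063). CCL3 was at 0.56 at 30 min, 0.54 and 0.62 at 1 h, -0.41 and -0.35 at 3 h, -0.70 and -0.78 at 6 h and -0.74 at 24 h, with a mean of -0.62 ± 0.10 (adjusted p = 0.00236). Both chemokines were above 0 on all 3 arrays up to 1 h and below 0 on all 5 from 3 h on.

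TNF was at -0.22 at 30 min, -0.12 and -0.02 at 1 h, -0.37 and -0.24 at 3 h, -0.57 and -0.70 at 6 h and -0.61 at 24 h. It was below 0 on all 8 arrays, lowest from 6 h on, with a mean of -0.52 ± 0.07 (adjusted p = 0.000504). With the mean of the other experiments subtracted its value was -0.07 and did not pass (adjusted p = 0.674). Of 42 NF-kB target genes tested, these 3 were lower and EBI3 (0.34 ± 0.09), which encodes a subunit of IL-27 and IL-35, was higher (median 0.01), against 0.744% lower and 2.97% higher of all genes. EBI3 did not pass with the run as a random block (adjusted p = 0.1). Of 36 chemokine and cytokine genes the same 4 genes passed. EBI3 lost its call without any 1 of 4 arrays, all but 6 h replicate 2 (adjusted p from 0.0521 to 0.219). The NF-kB inhibitor gene NFKBIA was at -0.09 ± 0.12 and did not pass. Also lower were WNT5A, a secreted Wnt ligand (-0.44 ± 0.09, adjusted p = 0.00893), KEAP1, the adaptor that marks NRF2 for degradation (-0.47 ± 0.12), and the lymphocyte transcription factor ETS1 (-0.39 ± 0.10), the last at -0.30 to -0.54 on the 5 arrays. WNT5A lost its call without 3 h replicate 2 (adjusted p = 0.0555) or the 24 h array (adjusted p = 0.157). KEAP1 and ETS1 lost theirs whichever of the 5 arrays was left out (adjusted p from 0.061 to 0.32 and from 0.0518 to 0.124) and with the run as a random block (adjusted p = 0.121 and 0.1). Without the 24 h array WNT5A was at -0.28 and KEAP1 at -0.29, and with the mean of the other experiments subtracted ETS1 was at -0.26 (adjusted p = 0.179).

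**Figure D2:**
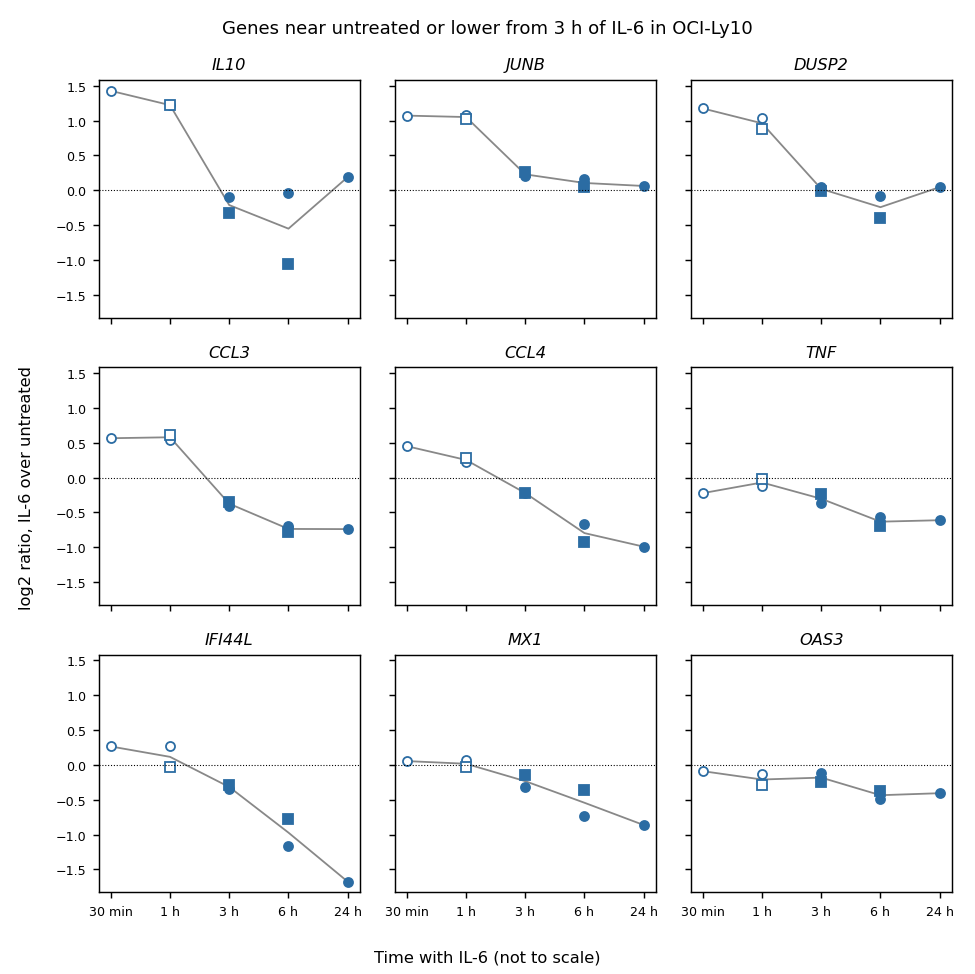
Log2 ratio of IL-6 over untreated RNA (y axis) by time with IL-6 (x axis, 30 min to 24 h, not to scale) for 9 genes. Each point is 1 array, circles being replicate 1 or a single array and squares replicate 2, with filled points from 3 h on, and lines join the means. IL10, JUNB and DUSP2 are at or above 0.88 up to 1 h and at or below 0.26 from 3 h on, CCL3 and CCL4 cross 0 between 1 and 3 h, and IFI44L reaches -1.68 at 24 h.

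A direct test of 3 and 6 h against 1 h asked which early responses ended. Of 3356 genes tested, 4 were lower (0.119%) and 2 higher (0.0596%; 0.179% in all) at 3 and 6 h than at 1 h. IL10, a cytokine that itself activates STAT3, was at 1.43 at 30 min and at 1.22 and 1.23 at 1 h, then at -0.10 and -0.33 at 3 h, -0.05 and -1.06 at 6 h and 0.19 at 24 h. JUNB, a subunit of AP-1, was at 1.07 at 30 min, 1.08 and 1.02 at 1 h, 0.20 and 0.26 at 3 h, 0.16 and 0.05 at 6 h and 0.06 at 24 h. DUSP2, a phosphatase that switches off MAP kinases, was at 1.17 at 30 min, 1.04 and 0.88 at 1 h, 0.05 and -0.01 at 3 h, -0.08 and -0.40 at 6 h and 0.04 at 24 h.

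For these 3 genes no array from 3 h on came near the early ones. The differences from 1 h were -1.60 ± 0.26 for IL10 (adjusted p = 0.00672), -0.88 ± 0.11 for JUNB (adjusted p = 0.000725), -1.07 ± 0.16 for DUSP2 (adjusted p = 0.00296) and -1.14 ± 0.19 for CCL3 (adjusted p = 0.00672). Without 1 h replicate 1 the calls of IL10 (adjusted p = 0.0681), DUSP2 (adjusted p = 0.0638) and CCL3 (adjusted p = 0.0646) were lost. Without 1 h replicate 2 those of IL10 (adjusted p = 0.105) and CCL3 (adjusted p = 0.122) were lost, and JUNB kept its call in both cases. SOCS3 fell short of the threshold in this test, at -0.94 ± 0.22 (adjusted p = 0.125), as did BCL3, at -0.46 ± 0.16 (adjusted p = 0.865). Of 24 immediate-early genes tested in this comparison 2 were lower and none was higher, against 0.119% and 0.0596% of all genes. The list median was -0.17 against 0.00 for all genes. The comparison shares its 3 and 6 h arrays with the mean over 3 to 24 h.

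The 2 genes higher at 3 and 6 h than at 1 h were TMEM106B, a lysosomal membrane protein, and RAP1GAP2, a regulator of the GTPase RAP1. RAP1GAP2 was below 0 on all 3 early arrays (-0.39, -0.63 and -0.82), between -0.15 and 0.22 at 3 and 6 h, and at -0.35 at 24 h. Its difference lost the call with the replicate number as a block (adjusted p = 0.077) and without 1 h replicate 1 (0.0681), 1 h replicate 2 (0.341) or 6 h replicate 2 (0.0823). TMEM106B had no value on 6 h replicate 1, and its 7 probes had means over the 5 arrays from -0.02 to 4.81. With the median over probes in place of the mean its difference was 0.60 and did not pass (adjusted p = 0.185). Its call was also lost without either 1 h array (adjusted p = 0.201 for each) or either 3 h array (0.0909 for replicate 1 and 0.0728 for replicate 2).

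The 24 h array was also set against 3 and 6 h. Of 3496 genes tested 4 were higher (0.114%) and 1 was lower (0.0286%; 0.143% in all) at 24 h, where 174 had an unadjusted p under 0.05. The higher genes were AMPD3, an AMP deaminase, the atypical chemokine receptor ACKR5, PDIA5, a protein disulfide isomerase, and FOXD1, a forkhead factor. Their 24 h values were 1.09, 1.26, 1.00 and 0.93, against at most 0.38 on any array at 3 or 6 h. PKD1, the polycystin-1 gene, was at -1.90 at 24 h and between -0.78 and 0.38 before. All rest on the 1 array at 24 h, whose spread was taken from the other time points. With the replicate number as a block PKD1 kept its call, and AMPD3 (adjusted p = 0.0844), ACKR5 (0.0769), PDIA5 (0.0769) and FOXD1 (0.0537) lost theirs. That fit made 3 calls, 1 of them shared with the 5. The 24 h array has no replicate number in its label, so this block does not adjust it. It lies in the run of the replicate 1 arrays, while the 3 and 6 h arrays lie in both runs. No gene of this comparison passed with a value required on every array (115 at an unadjusted p under 0.05) or with arrays scaled to equal spread (198 at an unadjusted p under 0.05), and 1 passed without 3 h replicate 1.

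Tested 1 time point at a time, 3 of 3394 genes were higher and none lower at 3 h (0.0884%; 211 at an unadjusted p under 0.05), namely PTPN1, BCL3 and TCF12. At 6 h 31 of 3218 genes were higher and 6 lower (0.963% and 0.186%, or 1.15% in all). They included SPP1 at 1.85, IL2RB at 0.81, BCL3 at 0.72, IFI44L at -0.97, CCL4 at -0.80, CCL3 at -0.74, TNF at -0.63 and MX1 at -0.54. At 24 h 37 of 3990 were higher and 7 lower (0.927% and 0.175%, or 1.1% in all), among them SPP1 at 2.58, GZMB at 1.98, IFI44L at -1.68, CCL4 at -0.99 and MX1 at -0.86. These counts differ in the number of arrays behind them and do not rank the times.

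Several lists gave no call. Over all genes 3.72% were called, and at that share lists of these sizes would hold few calls or none. None passed of 16 plasma cell genes (median -0.01), 29 B cell and germinal centre genes (median -0.03), 9 MHC class II genes (median 0.07), 28 survival and apoptosis genes (median 0.04), 25 immediate-early genes (median 0.00) or 17 integrated stress response genes (median -0.04). The same held for 43 cell cycle genes (median -0.09), of which 38 had means below 0, against 50.9% of all genes. TOP2A was the lowest at -0.29 and MKI67 was at -0.15. Of 12 MYC-linked growth genes 11, and of 14 ER chaperone genes 13, were below 0, while of 26 cytosolic ribosomal protein genes 23 were above 0. With the mean of the other experiments subtracted, 33 of 42 cell cycle genes and 11 of 14 ER chaperone genes were below 0, and 7 of 12 MYC-linked genes (median -0.02), but 19 of 25 ribosomal protein genes then lay below 0 too.

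**Figure D3:**
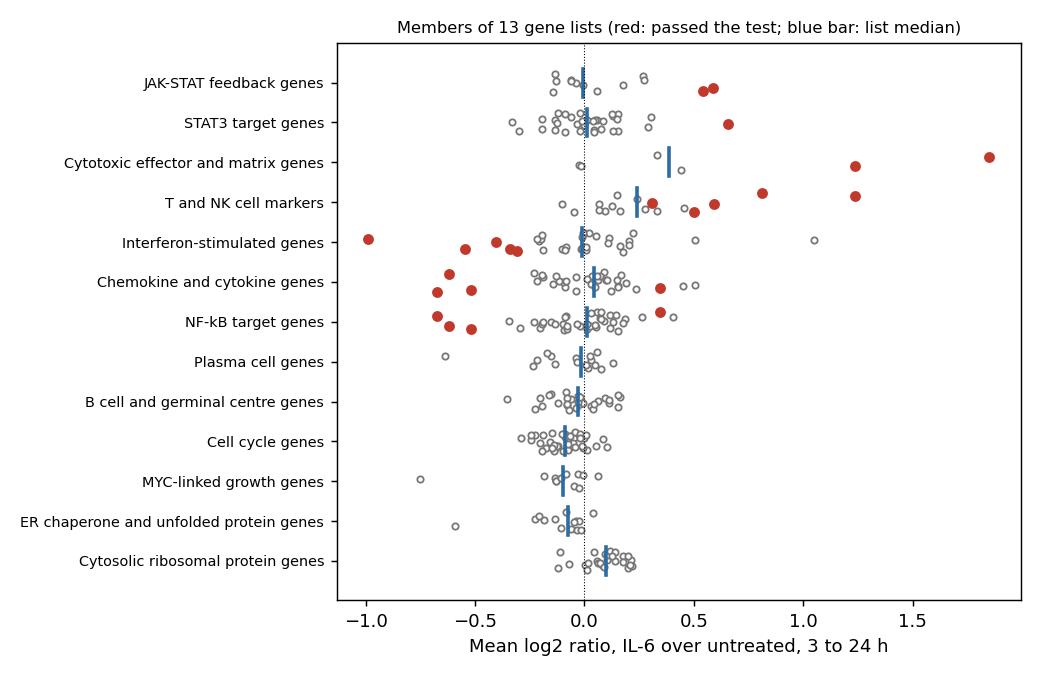
Mean log2 ratio of IL-6 over untreated RNA over 3 to 24 h (x axis) for each tested member of 13 gene lists (1 list per line, points spread vertically for clarity). Red points passed the test, open points did not, and blue bars mark list medians. In most lists calls are few and the median is near 0, as for STAT3 targets (BCL3 at 0.66) and interferon-stimulated genes (IFI44L at -0.99). The medians were higher for cytotoxic effector and matrix genes (0.39, 2 of 6 called) and T and NK cell markers (0.24, 5 of 17 called).

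JAK inhibitor I blocks the kinases through which IL-6 signals, and at 5 uM it was given to the same line for the same 3 and 6 h without IL-6. The comparison asks which genes stood apart between cytokine and inhibitor. The arrays of the 2 agents lie in separate runs of identifiers, so agent and run cannot be told apart. Of 4001 genes tested, 63 were higher with IL-6 than with the inhibitor and 24 lower (1.57% and 0.6%, or 2.17% in all). Of these, 22 were among the 130 genes called over 3 to 24 h, where 3.72% of all genes tested were called. Both tests use the same IL-6 arrays at 3 and 6 h, so an overlap is partly built in. The count was 53 without 3 h replicate 1 of IL-6 and 41 without 3 h replicate 1 of the inhibitor.

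BCL3 had a mean of 0.73 over 3 and 6 h of IL-6, and with the inhibitor it was at -0.92 on 3 h replicate 2 (lower still on replicate 1) and at -0.54 and -0.58 at 6 h, a difference of 1.49 ± 0.13 (adjusted p = 4.1e-06). GPR183 was at 0.67 with IL-6 and at -0.81, -0.72 and -0.66 on 3 of the 4 inhibitor arrays and lower still on 6 h replicate 1, a difference of 1.47 ± 0.19 (adjusted p = 0.000247). Every inhibitor array was below 0 and every IL-6 array above 0 for both genes. SPP1 had the largest difference, 1.79 ± 0.25, with IL-6 at 1.49 and the inhibitor closer to 0 (-0.31, with all 4 arrays between -0.27 and -0.38). The same held for GZMB (0.87 and -0.36), IL2RB (0.80 and -0.28), PTPN1 (0.63 and -0.22) and TCF12 (0.54 and -0.27), all of which passed. All genes of this paragraph had already passed over 3 to 24 h, on the same IL-6 arrays at 3 and 6 h. The IL-6 side of these differences is therefore not separate support for a rise with IL-6.

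STAT3, which did not pass over 3 to 24 h, passed here, with a mean of 0.29 with IL-6 and -0.69 with the inhibitor (difference 0.98 ± 0.24, adjusted p = 0.0361). DUSP2 also passed (0.97 ± 0.13), with the inhibitor at -1.08 and IL-6 at -0.11. SOCS3 did not pass, at 0.51 with IL-6 and 0.22 with the inhibitor (adjusted p = 0.521).

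For several genes that fell with IL-6 over 3 to 24 h the difference did not pass, which does not show that the agents act alike. CCL4 was at -0.51 with IL-6 and -0.80 with the inhibitor, CCL3 at -0.56 and -0.48, MX1 at -0.39 and -0.36 and TNF at -0.47 and -0.17, with differences of 0.29 ± 0.15, -0.08 ± 0.15, -0.03 ± 0.12 and -0.30 ± 0.11. IFI44L was at -0.65 with IL-6 and -0.05 with the inhibitor (difference -0.59 ± 0.17, adjusted p = 0.0954). The lowest differences belonged to genes that were higher with the inhibitor. The stress genes DDIT3 (0.04 with IL-6 and 1.11 with the inhibitor) and ATF4 (0.05 and 0.90) were among them. The ATF4 difference lost its call when any 1 of 7 of the 8 arrays was left out, all but 6 h replicate 2 of the inhibitor (adjusted p from 0.0628 to 0.117). So were CD79B, a chain of the B cell receptor complex (-0.39 and 0.68), and RGS1, which dampens chemokine receptors (-0.43 and 0.39). Of 17 integrated stress response genes, 8 were lower with IL-6 than with the inhibitor and none was higher. Over all genes 0.6% were lower and 1.57% higher.

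**Figure D4:**
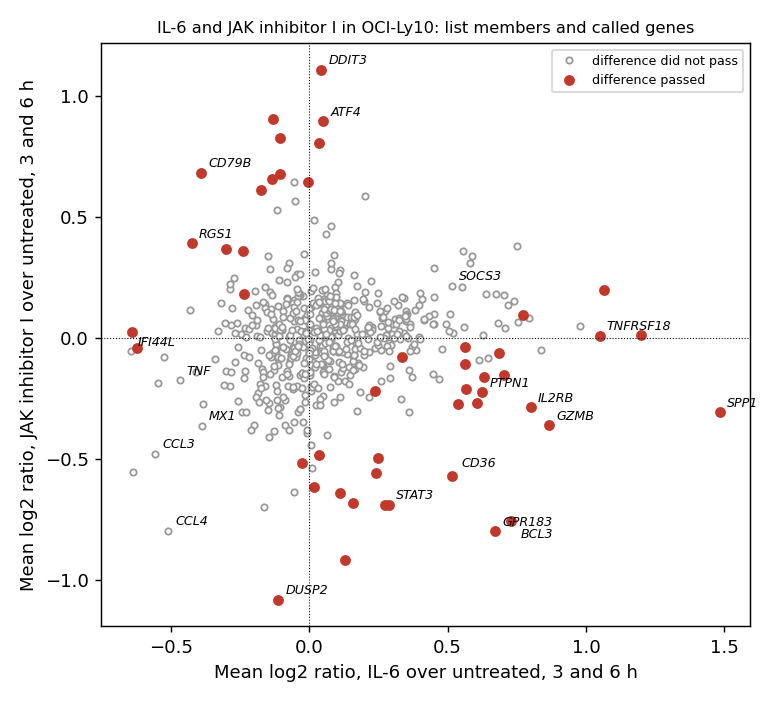
Mean log2 ratio over 3 and 6 h for IL-6 (x axis) and JAK inhibitor I (y axis), each over untreated OCI-Ly10 RNA. Points are list members and called genes, red where the difference between the agents passed the test. BCL3 (0.73 and -0.76) and GPR183 (0.67 and -0.80) lie at the lower right, SPP1 lies far right at 1.49, and CCL3, CCL4 and MX1 are below 0 with both agents.

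IL-10 signals through the same STAT3 but another receptor, and was given to OCI-Ly3, so line and cytokine cannot be told apart. Over 3, 6 and 24 h, 182 of 3692 genes tested were higher with IL-6 in OCI-Ly10 and 153 lower than with IL-10 in OCI-Ly3 (4.93% and 4.14%, or 9.07% in all). GPR183 had a mean of 0.71 with IL-6, against 2.44 to 4.30 on the 6 IL-10 arrays (mean 3.23), a difference of -2.52 ± 0.16 (adjusted p = 1.98e-08). STAT3 (0.19 and 1.88), SOCS2 (0.27 and 2.19), CXCL9 (0.50 and 2.67), CD36 (0.61 and 2.01), PTPN1 (0.59 and 1.91) and BCL3 (0.66 and 1.68) were likewise lower with IL-6. For these genes the response in OCI-Ly10 was thus the smaller.

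SPP1 and GZMB went the other way. SPP1 had a mean of 1.85 with IL-6 and 0.16 with IL-10, whose 6 arrays ran from -0.46 to 0.73, a difference of 1.69 ± 0.22 (adjusted p = 5.84e-05). GZMB was at 1.24 with IL-6 and 0.07 with IL-10 (difference 1.16 ± 0.21, adjusted p = 0.00142). Without the 24 h array of IL-6 the GZMB difference was 0.80 and did not pass (adjusted p = 0.0538). KLRC2 (0.92 and -0.08) and NOTCH3 (0.65 and -0.04) were also higher with IL-6. SPP1, GZMB, KLRC2 and NOTCH3 were named for high means on the same IL-6 arrays that form 1 side of this comparison. With IL-10 near 0, their differences largely repeat those means. TNF fell less with IL-6 (-0.52) than with IL-10 (-1.42), while CCL3 (-0.62 and 0.01) and CCL4 (-0.67 and 0.04) were lower with IL-6. IL2RB was at 0.81 and 0.85, a difference of -0.03 ± 0.15 (adjusted p = 0.92), and MX1 at -0.55 and -0.39, a difference of -0.15 ± 0.11 (adjusted p = 0.412), neither of which passed.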

How the data were processed

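The authors deposited 1 table of log ratios, Cy5 (treated) over Cy3 (untreated), for 15246 probes on 40 arrays, made from Trizol RNA by oligo-dT priming, per the labels. The deposited values are read as log2. Their base, and the scanner software, background correction and spot filter behind them, were not given in the sources used. Blank cells made up 29.2% on the 5 arrays and 12.6% over the table, and the number of arrays, not a read depth, limits the precision.

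Each array was centred on its median (deposited medians -0.031 to 0.008) and probes of a gene were averaged. Names came from GEO's platform annotation, which is old, updated through RefSeq: 10169 probes with 1 symbol gave 4604 genes, 4 had several and 5073 had none. limma 3.58.1 in R 4.3.3 fitted all 40 arrays with 1 mean for each time point of each experiment, which share 1 spread per gene, and the mean of the 3, 6 and 24 h means was tested against 0 (a gene needed values on 75% of the arrays and at every time). Each ratio includes the untreated channel. If arrays shared 1 batch of untreated RNA, which the labels do not say, the test leaves out the spread between untreated cultures. Adjusted p-values are Benjamini-Hochberg over all genes tested in a comparison, and 8 comparisons were made. The procedure was tested on simulated data.

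Replicate numbers paired the arrays: differences between replicates 1 and 2 correlated at 0.193, 0.269 and 0.227 between the 1, 3 and 6 h pairs. A run is a stretch of close array identifiers in the titles, of which there were 12, and its consensus correlation was 0.27. The alternatives were no centring, equal spread, only the experiments compared in the fit, a value on every array, the median over probes, equal weights, the replicate number or run as a block, and each array left out. The run block without 3 h replicate 1 and the subtraction of the other 5 experiments were added after seeing the data.

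Genes named were the 12 highest and 12 lowest of one sign on every array, the 6 highest and lowest of each difference, up to 4 called members of each of 25 lists and members that define the pathway. The members and lists were chosen with earlier results of these data known.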

Additional observations from a re-analysis of the deposited data

Results flagged for a closer look

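Differences between times that passed their own test are the following. At 3 and 6 h minus 1 h they were -1.60 for IL10, -1.14 for CCL3, -1.07 for DUSP2, -0.88 for JUNB, 0.85 for RAP1GAP2 and 1.04 for TMEM106B. At 24 h minus 3 and 6 h they were -1.79 for PKD1, 0.89 for FOXD1, 0.92 for PDIA5, 1.17 for ACKR5 and 1.26 for AMPD3. The lower values of IL10, CCL3, DUSP2 and JUNB rest on 2 arrays against 4, and the 24 h values on a single array. PKD1, PDIA5, ACKR5 and AMPD3 each rest on 1 probe, and FOXD1 on 2.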

How the results depend on the processing

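Of 130 genes called over 3 to 24 h without it, the replicate number as a block gave 218, and it gave 7 at 3 h, 97 at 6 h, 115 at 24 h, 3 for 24 h minus 3 and 6 h and 162 against JAK inhibitor I, where the fits without it gave 3, 37, 44, 5 and 87. The run as a random block gave 46 over 3 to 24 h, 64 with 3 h replicate 1 also left out, 9 for 24 h minus 3 and 6 h, 14 for 3 and 6 h minus 1 h, 48 against JAK inhibitor I and 161 against IL-10. Arrays scaled to equal spread gave 284, 27 at 3 h, 136 at 6 h, 0 for 24 h minus 3 and 6 h, 16 for 3 and 6 h minus 1 h and 206 against JAK inhibitor I. A fit on only the experiments compared, in limma, gave 29 over 3 to 24 h (62.1% higher against 80% before) and 188 against IL-10. It gave 0 at 3 h (265 at an unadjusted p under 0.05), 0 at 6 h (426), 0 at 24 h (539), 0 for 24 h minus 3 and 6 h (241) and 0 for 3 and 6 h minus 1 h (135). A value needed on every array gave 86, and 0 for 24 h minus 3 and 6 h. Subtracting the mean of the other 5 experiments gave 198 of 3286 genes, 65.7% higher, 91 of them shared. Under it TNF (-0.07), PTPN1 (0.25) and GPR183 (0.41) lost their calls, and 21 of 31 named genes with a call kept theirs. Signs turned for genes with no call: JUNB -0.0606, MYC 0.26, PRDM1 -0.14, NFKBIA 0.21, IL6R 0.0797 and IL6ST -0.11 under that subtraction, IL6R without 6 h replicate 2 (leaving out 1 array gave -0.0488 to 0.0359) and IL6ST without 3 h replicate 1 (leaving out 1 array gave -0.0373 to 0.0783, and -0.0373 with the run as a block too). Leaving out 1 array gave 59 to 109 over 3 to 24 h, 2 to 3 at 3 h, 35 to 61 at 6 h, 1 to 9 for 24 h minus 3 and 6 h, 5 to 9 for 3 and 6 h minus 1 h, 41 to 79 against JAK inhibitor I and 215 to 387 against IL-10. Of 34 called genes named over 3 to 24 h, 34 kept the call with the replicate block, 19 with the run as a block, 14 in the fit on the IL-6 arrays alone and 17 of 32 without 3 h replicate 2. The cause was not tested. The 24 h time has 1 array, no dye swap was made, blanks were common, and shared untreated RNA would make the arrays less independent than the test assumes.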

Other observations

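The series also holds OCI-Ly10 cells given an siRNA pool against STAT3, a main transcription factor of IL-6 signalling. The agent differs, and the times match only in part, so the values are set side by side with no test. The control cells were given no siRNA, so loss of STAT3 and a response to introduced siRNA cannot be told apart. STAT3 itself was at -1.46 and -2.26 at 24 h of siRNA and at -1.74 and -0.89 at 48 h. GZMB, at 1.24 over 3 to 24 h of IL-6, was between -1.26 and -0.97 on the 4 siRNA arrays at 24 and 48 h, and at 0.02 on the single 8 h array. GPR183, at 0.71 with IL-6, was at -0.44 and -0.56 and then at -1.02 and -0.91. SPP1, at 1.85 with IL-6, was at -0.66 on the single 24 h array with a value and at -0.26 and -0.43 at 48 h. All measured siRNA arrays at 24 and 48 h were below 0 for these 3 genes. BCL3, at 0.66 with IL-6, lay nearer 0, at 0.09 and -0.25 at 24 h and -0.12 and -0.33 at 48 h, and SOCS3, at 0.54 with IL-6, was above 0 on all 4, from 0.07 to 0.34.

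Of the genes lower with IL-6, 5 chosen after their values were seen were above 0 on all or all but 1 of the siRNA arrays at 24 and 48 h. CCL4, at -0.67 with IL-6, was at 0.43 and 0.47 at 24 h of siRNA and at 1.28 and 1.02 at 48 h. CCL3, at -0.62 with IL-6, was at 0.40 and 0.36 and then at 0.61 and 0.54. IFI44L, at -0.99 with IL-6, was at 0.60 and 0.09 and then at 0.87 and 0.53, and MX1, at -0.55 with IL-6, ran from 0.04 to 0.53 over the 4 arrays. TNF, at -0.52 with IL-6, was at 0.08 and -0.01 at 24 h and at 0.66 and 0.28 at 48 h of siRNA. Others did not share this. ETS1 was at -0.62 and 0.03 at 24 h and at -0.53 and -0.06 at 48 h, KEAP1 at 0.16 and -0.32 and then at -0.18 and -0.38, and OAS2 at -0.10 and -0.07 and then at -0.20 and 0.44.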
